A study of Mus musculus with 24 samples.

Results

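The SLC25 family of mitochondrial carriers was represented by 46 genes, read by 50 of the 28815 probe sets, among 19935 genes of the mouse liver array. A gene was a member if its probe set had 1 platform symbol and that symbol began with Slc25a and a number. SLC25 proteins are small membrane carriers with a common fold, most of them in the inner mitochondrial membrane. Each exchanges or co-transports particular metabolites between the cytosol and the matrix, such as ADP and ATP, phosphate, keto acids, amino acids, cofactors or iron. In hepatocytes they join the matrix steps of the urea cycle, gluconeogenesis, heme synthesis and folate metabolism to the cytosolic steps.

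RNA came from whole livers of adult male C57BL/6 mice, the strain shared by all groups, which had free access to food and were moved from 12 h of light and 12 h of dim red light to dim red light alone. Livers were taken at 8 circadian times (CT00, CT03, CT06, CT09, CT12, CT15, CT18 and CT21) in the second cycle of constant conditions, and each time had 3 arrays from separate livers (24 arrays in all). The protocol text mentions 4 mice per time and the series text mentions 4 time points, whereas the sample labels give 3 replicates and 8 times, which were followed here. The hours before CT12 are the subjective day, and the rest of the cycle is the subjective night, the active phase of mice.

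The deposited values, taken as log2 since their log base is not stated, are centred, with each probe set's median over the 24 arrays at 0, so levels of different carriers could not be compared. Array medians lay between -0.0185 and 0.0147. Of the hepatocyte markers, 7 of 7 tested were in the brighter of the 2 classes that the values allow. Among them 1, Cyp2e1, was called rhythmic (adjusted p = 0.00565, 1.15-fold, peak at 11 h), within the span of the carrier peaks given below, and 3 had an unadjusted p under 0.05. Markers of red blood cells (2 tested), Kupffer cells (5) and endothelial cells (5) included no gene called rhythmic by limma, and none (0, 0 and 0) had an unadjusted p under 0.05. Among stellate and bile duct markers Pdgfrb and Sox9 were called, and the part of these 3 genes in the results below was not tested. In whole liver RNA, fewer cells of a type and less RNA per cell cannot be told apart.

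Promoter windows are shown for the 3 called carriers whose window held a motif that was searched. RefSeq promoter windows (GRCm38.p6, 250 bases before to 50 after a gene start) were on hand for 36 of the 46 members. The called carriers Slc25a32, Slc25a37, Slc25a44, Slc25a46 and Slc25a51 had no window and were not searched. The motif is in capitals, and a motif on the opposite strand reads as its reverse complement. Slc25a47 lies at chr12:108850879-108851178 (plus strand) and has the nuclear receptor motif AGGTCA, the core that REV-ERB and ROR proteins can bind, 153 bases before its start. Slc25a39 lies at chr11:102407468-102407767 (minus strand) with the same motif 172 bases before its start. Slc25a13 lies at chr6:6217124-6217423 (minus strand) with the E-box CACGTG, the motif bound by CLOCK and BMAL1, 125 bases before its start.
Slc25a47: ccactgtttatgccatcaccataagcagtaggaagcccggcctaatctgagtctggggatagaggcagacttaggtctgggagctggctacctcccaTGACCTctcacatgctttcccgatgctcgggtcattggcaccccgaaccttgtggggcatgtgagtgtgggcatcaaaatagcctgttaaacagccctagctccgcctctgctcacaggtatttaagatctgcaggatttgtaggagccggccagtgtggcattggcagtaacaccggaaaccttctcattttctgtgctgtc
Slc25a39: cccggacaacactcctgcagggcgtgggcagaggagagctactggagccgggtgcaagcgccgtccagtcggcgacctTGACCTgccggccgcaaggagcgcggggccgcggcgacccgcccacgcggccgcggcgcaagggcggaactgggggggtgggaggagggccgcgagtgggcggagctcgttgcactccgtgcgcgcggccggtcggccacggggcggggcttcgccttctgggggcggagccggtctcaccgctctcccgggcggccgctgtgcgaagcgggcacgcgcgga
Slc25a13: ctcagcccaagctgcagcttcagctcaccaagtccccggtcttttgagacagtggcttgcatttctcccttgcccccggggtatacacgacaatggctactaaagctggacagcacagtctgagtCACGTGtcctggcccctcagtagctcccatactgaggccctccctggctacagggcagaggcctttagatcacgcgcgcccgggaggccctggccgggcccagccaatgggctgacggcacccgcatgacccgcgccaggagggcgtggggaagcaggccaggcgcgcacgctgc

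AGGTCA was found on either strand in 4 of the 36 members and in 18.1% of 27025 genes with a window, and CACGTG in 7 members and 8.09% of genes. Of the 9 called members with a window, AGGTCA was in 2 and CACGTG in 1. The D-box letters TTATGTAA or TTACGTAA (1.23% of genes), the heat shock core GAANNTTC (9.04%) and the NRF1 motif (1.07%) were in 0 member windows. A match is a description of these letters, not of a bound site. No searched motif overlapped another in the windows printed.

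The comparison over the cycle asked which carriers follow a 24 h wave. By limma's moderated F with Benjamini-Hochberg adjustment over all genes, 14 of the 46 carriers (30.4%) were rhythmic at an adjusted p under 0.05, against 13.8% of all genes. Their peaks all lay from 6.66 to 17.5 h, 6 before CT12 and 8 after, and 0 fell in the 12 h around subjective dawn. Of all rhythmic genes on the array, 57.8% peaked from 6 to 18 h. The median peak-to-trough fold was 1.12 over all 46 carriers and 1.07 over all genes. Brightness moved with this count. Among carriers in the brighter class 10 of 17 were called (34.1% of genes in that class), and among the rest 4 of 29 (10.8% of genes). The part of brightness in the count was not tested further.

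**Figure D1:**
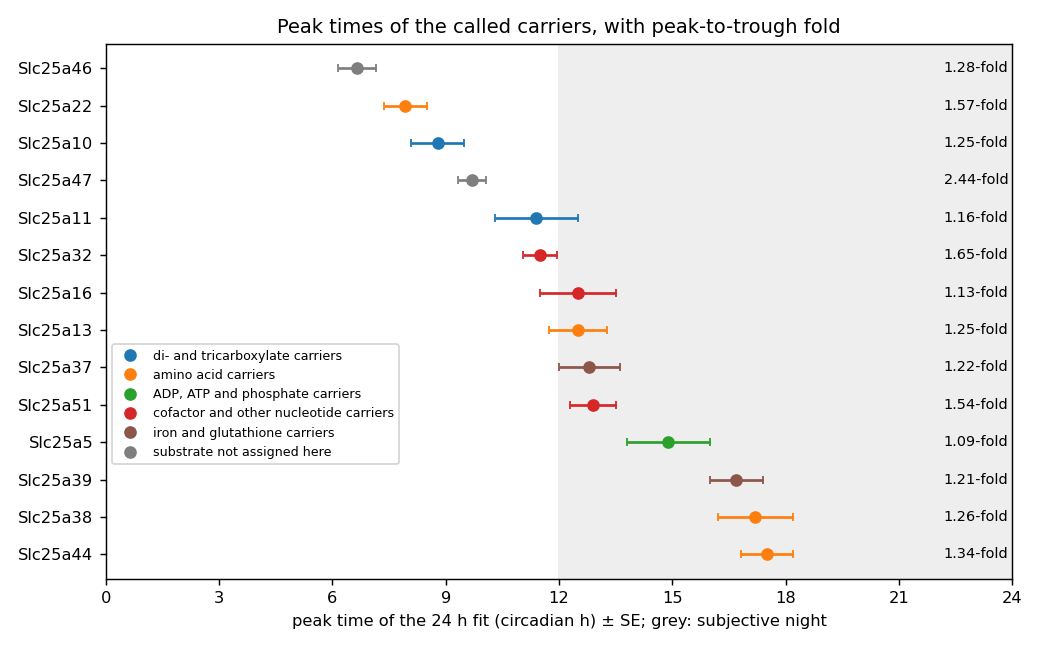
Peak time of the 24 h fit on the x axis (circadian hours, bars are SE) for the 14 called carriers, coloured by substrate class, with the peak-to-trough fold at the right and the subjective night in grey. The peaks run from Slc25a46 at 6.66 h to Slc25a44 at 17.5 h, and the widest wave is that of Slc25a47 with 2.44-fold.

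Slc25a47, a carrier made mainly in liver whose substrate is debated, had the widest wave of the family. Its 3 arrays gave -0.73, -0.33 and -0.14 at CT00, 0.09, -0.30 and -0.16 at CT03, 0.65, 0.35 and 0.65 at CT06, and 0.90, 0.93 and 0.61 at CT09. They gave 0.33, 0.47 and 0.96 at CT12, 0.39, -0.14 and 0.56 at CT15, -0.48, -0.09 and -0.39 at CT18, and -0.59, -0.16 and -0.43 at CT21. All 9 arrays of CT06, CT09 and CT12 were therefore above all 9 arrays of CT18, CT21 and CT00. The fit gave an amplitude of 0.64 ± 0.06 (log2, middle to peak, SE), a peak at 9.7 h ± 0.38 and 2.44-fold between peak and trough (adjusted p = 3.1e-07). It was the 1 carrier that exceeded 2-fold.

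Slc25a32, which carries folate or flavin adenine dinucleotide (FAD) into the matrix, came next with a sharp maximum at subjective dusk. Its arrays gave -0.01, -0.15 and 0.01 at CT00, -0.27, -0.24 and -0.05 at CT03, -0.01, 0.01 and 0.21 at CT06, and 0.39, 0.25 and 0.49 at CT09. They gave 0.73, 0.56 and 0.71 at CT12, 0.21, 0.22 and 0.44 at CT15, -0.10, -0.11 and -0.05 at CT18, and -0.11, -0.14 and -0.19 at CT21. The 3 arrays of CT12 were above all others. The amplitude was 0.36 ± 0.04 with a peak at 11.5 h ± 0.45 and 1.65-fold (adjusted p = 4.63e-06). A 12 h component was also called (amplitude 0.162, adjusted p = 0.0195, against 0.577% of all genes with such a call), and it was lost without CT00 replicate 3 (0.0539). It was lost as well after quantile normalization (0.0674) and without the 4 farthest arrays (0.0514).

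Slc25a51, the carrier of nicotinamide adenine dinucleotide (NAD) into the matrix, peaked close by. Its arrays gave -0.29, -0.28 and -0.10 at CT00, -0.22, -0.34 and -0.14 at CT03, 0.00, -0.22 and -0.08 at CT06, and 0.36, 0.25 and 0.10 at CT09. They gave 0.20, 0.33 and 0.70 at CT12, 0.53, 0.08 and 0.38 at CT15, -0.11, 0.11 and -0.08 at CT18, and -0.30, 0.30 and 0.00 at CT21. Every array of CT09, CT12 and CT15 was above every array of CT00, CT03 and CT06, whereas the 3 arrays of CT21 spread over most of the range. The amplitude was 0.31 ± 0.05 with a peak at 12.9 h ± 0.60 and 1.54-fold (adjusted p = 0.000218). The third called cofactor carrier was Slc25a16, linked to coenzyme A supply of the matrix. Its wave was shallow, 1.13-fold with a peak at 12.5 h ± 1.0 (adjusted p = 0.0362) and group means of 0.14 ± 0.12 at CT15 and -0.11 ± 0.04 at CT21 (SD, n = 3).

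The Slc25a16 call did not hold under all choices. It was lost without CT00 replicates 1 or 2 (adjusted p = 0.0581 and 0.0735), CT09 replicate 3 (0.0507), CT12 replicates 1 or 3 (0.0676 and 0.0882), CT15 replicates 2 or 3 (0.0684 and 0.0676), or CT21 replicates 1, 2 or 3 (0.0538, 0.0573 and 0.0543). It was lost too without CT00, CT06, CT12, CT15, CT18 or CT21 as whole times (0.131, 0.0516, 0.206, 0.118, 0.0663 and 0.109) and without the 4 farthest arrays (0.105). The other 5 tested cofactor and nucleotide carriers, among them the peroxisomal Slc25a17, the S-adenosylmethionine carrier Slc25a26 and the pyrimidine nucleotide carriers Slc25a33 and Slc25a36, were not called, with folds of 1.09 to 1.15 and adjusted p from 0.128 to 0.661. Of these 5 only Slc25a17 is in the brighter class. That class (34.1% of genes called) also holds the called Slc25a16, whereas Slc25a32 and Slc25a51 are outside it (10.8%).

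**Figure D2:**
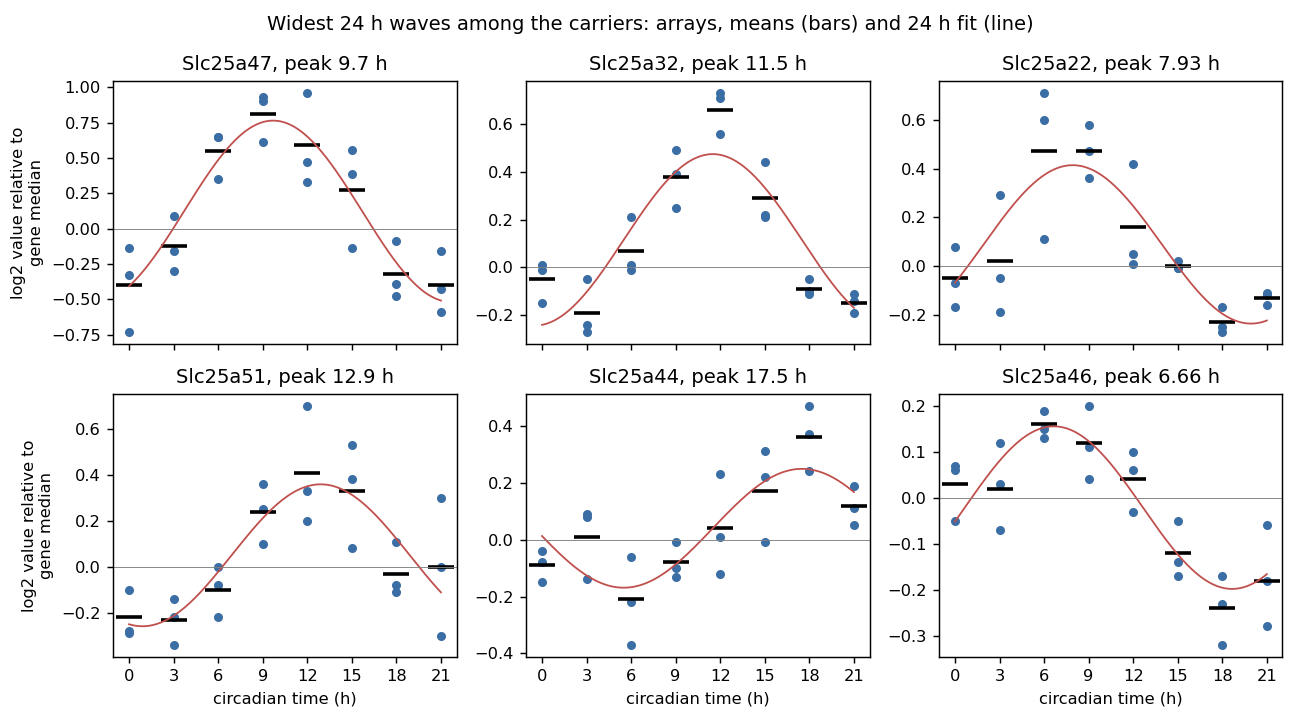
The 6 called carriers with the largest amplitudes. Points are arrays (3 per time), bars the mean of a time and lines the 24 h fit, with the log2 value relative to the gene median on the y axis (scale differs between panels) and circadian time in hours on the x axis. The maximum moves from CT06 in Slc25a46 to CT18 in Slc25a44.

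Of 9 amino acid carriers tested, 4 were rhythmic, with peaks at 7.93 h (Slc25a22), 12.5 h (Slc25a13), 17.2 h (Slc25a38) and 17.5 h (Slc25a44). Of these, Slc25a13, Slc25a22 and Slc25a44 are in the brighter class (34.1% of genes called), and Slc25a38 is outside it (10.8%). Slc25a22, which brings glutamate into the matrix together with a proton, peaked in the subjective afternoon. Its arrays gave -0.17, -0.07 and 0.08 at CT00, -0.05, -0.19 and 0.29 at CT03, 0.11, 0.60 and 0.71 at CT06, and 0.36, 0.47 and 0.58 at CT09. They gave 0.01, 0.05 and 0.42 at CT12, 0.02, -0.01 and -0.01 at CT15, -0.27, -0.17 and -0.25 at CT18, and -0.16, -0.11 and -0.12 at CT21. The arrays of CT06 and CT09 lay above all of CT15, CT18 and CT21, and those of CT06 differed widely. The amplitude was 0.32 ± 0.05, the peak 7.93 h ± 0.57 and the fold 1.57 (adjusted p = 0.000104).

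Slc25a44, which carries branched-chain amino acids, peaked latest of the rhythmic carriers. Its arrays gave -0.08, -0.15 and -0.04 at CT00, 0.09, -0.14 and 0.08 at CT03, -0.06, -0.37 and -0.22 at CT06, and -0.13, -0.01 and -0.10 at CT09. They gave -0.12, 0.23 and 0.01 at CT12, -0.01, 0.22 and 0.31 at CT15, 0.24, 0.47 and 0.37 at CT18, and 0.05, 0.19 and 0.11 at CT21. All arrays of CT18 were above every array of CT00, CT03, CT06, CT09, CT12 and CT21. The amplitude was 0.21 ± 0.04 with a peak at 17.5 h ± 0.69 and 1.34-fold (adjusted p = 0.00103). Its maximum thus fell where Slc25a22 was lowest.

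Slc25a13 encodes citrin, the aspartate-glutamate carrier of the liver, which serves the malate-aspartate shuttle and supplies aspartate to the urea cycle. Its group means were -0.11 ± 0.12 at CT00 and 0.23 ± 0.12 at CT12 (SD, n = 3). It had 1.25-fold and a peak at 12.5 h ± 0.77 (adjusted p = 0.00305). Slc25a38, which brings in glycine for heme synthesis, was lowest at CT09 (-0.25 ± 0.14) and high at CT15 (0.32 ± 0.11) and CT18 (0.25 ± 0.04; SD, n = 3). It had 1.26-fold and a peak at 17.2 h ± 1.0 (adjusted p = 0.0293). A 12 h component was also called (adjusted p = 0.00769, against 0.577% of all genes). Its amplitude of 0.177 was no smaller than the 24 h amplitude of 0.166 ± 0.044 (SE). The Slc25a38 means were near 0 at CT03, CT06, CT12 and CT21.

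The 24 h call of Slc25a38 was lost without CT15 replicates 2 or 3 (adjusted p = 0.0589 and 0.0605), CT18 replicates 2 or 3 (0.065 and 0.0603), the whole of CT15 (0.175) or CT18 (0.23), the 4 farthest arrays (0.247), or moderation (0.0519). The 5 uncalled amino acid carriers had folds of 1.07 to 1.18. They were the ornithine carriers Slc25a2 and Slc25a15, the second aspartate-glutamate carrier Slc25a12 (adjusted p = 0.194), the glutamate carrier Slc25a18 and the basic amino acid carrier Slc25a29. Of these only Slc25a15 is in the brighter class. Slc25a15, the ornithine carrier of the urea cycle, was the 1 carrier called by the test for any difference among the 8 times (adjusted p = 0.0248) but not by the 24 h fit (adjusted p = 0.387). Its means were highest at CT03 (0.14 ± 0.13), lowest at CT12 (-0.17 ± 0.08) and again above 0 at CT15 (0.09 ± 0.13; SD, n = 3). That call was lost without CT12 replicates 1 or 2 (0.0673 and 0.0513). The 8-time test called 11 of 46 carriers in all (10.9% of genes), 10 of them also rhythmic in the 24 h fit.

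Slc25a46 and Slc25a47 were the 2 rhythmic members of the 9 without an assigned substrate here. Both are in the brighter class (34.1% of genes called), and the rest of the 9 are outside it (10.8%). Slc25a46 is unusual in the family, since its protein sits in the outer mitochondrial membrane and takes part in mitochondrial shape rather than in known metabolite exchange. Its arrays gave 0.06, 0.07 and -0.05 at CT00, -0.07, 0.12 and 0.03 at CT03, 0.15, 0.13 and 0.19 at CT06, and 0.20, 0.04 and 0.11 at CT09. They gave 0.10, -0.03 and 0.06 at CT12, -0.14, -0.17 and -0.05 at CT15, -0.17, -0.32 and -0.23 at CT18, and -0.06, -0.18 and -0.28 at CT21. Every array of CT06 and CT09 was above every array of CT15, CT18 and CT21. The range was small and the arrays of a time lay close together: amplitude 0.18 ± 0.02, peak at 6.66 h ± 0.50, 1.28-fold (adjusted p = 1.97e-05).

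Among the di- and tricarboxylate carriers 2 of 4 were called. Slc25a1, Slc25a10 and Slc25a11 are in the brighter class (34.1% of genes called), and Slc25a21 is outside it (10.8%). Slc25a10, which exchanges malate or succinate for phosphate, had 1.25-fold with a peak at 8.79 h ± 0.70 (adjusted p = 0.00117) and means of -0.17 ± 0.04 at CT00, 0.17 ± 0.17 at CT06 and -0.20 ± 0.12 at CT21 (SD, n = 3). Slc25a11, which exchanges 2-oxoglutarate for malate in the malate-aspartate shuttle, had 1.16-fold with a peak at 11.4 h ± 1.1 (adjusted p = 0.039). The citrate carrier Slc25a1, which exports citrate for fatty acid synthesis, was not called (1.09-fold, adjusted p = 0.419), nor was the 2-oxoadipate carrier Slc25a21 (1.2-fold, adjusted p = 0.281).

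The Slc25a11 call was lost without CT00 replicates 2 or 3 (adjusted p = 0.066 and 0.0897), CT03 replicates 1 or 3 (0.0536 and 0.0602), CT06 replicate 1 (0.0501), CT09 replicate 1 (0.0509), CT12 replicates 1 or 2 (0.0895 and 0.0945), CT15 replicates 1, 2 or 3 (0.0558, 0.0504 and 0.0575) or CT21 replicates 2 or 3 (0.0699 and 0.0693). It was also lost without CT00, CT06, CT12, CT15, CT18 or CT21 as whole times (0.11, 0.063, 0.215, 0.105, 0.063 and 0.146), without the 4 farthest arrays (0.0666) and without moderation (0.0537).

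Of the iron and glutathione carriers 2 of 4 were rhythmic. Slc25a39 is in the brighter class (34.1% of genes called), and Slc25a28, Slc25a37 and Slc25a40 are outside it (10.8%). Slc25a37, mitoferrin-1, which imports iron and is best known from red cell precursors, had means of -0.23 ± 0.08 at CT03 and 0.17 ± 0.04 at CT12 (SD, n = 3), with 1.22-fold and a peak at 12.8 h ± 0.81 (adjusted p = 0.00517). The red blood cell markers tested, Alas2 and Slc4a1, averaged between -0.14 and 0.26 on the arrays and had adjusted p of 0.919 or more, and their part in the Slc25a37 wave was not tested. Its call was lost without the whole of CT03 (0.0534) or CT12 (0.0707). Slc25a39, a carrier of glutathione, had means of -0.15 ± 0.05 at CT00 and 0.14 ± 0.08 at CT18 (SD, n = 3), with 1.21-fold and a peak at 16.7 h ± 0.71 (adjusted p = 0.00149). Slc25a28, mitoferrin-2, and Slc25a40, a relative of Slc25a39, were not called (adjusted p = 0.154 and 0.245).

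Of 8 carriers of ADP, ATP and phosphate 1 was called, Slc25a5, which exchanges ADP for ATP, and it is the member just inside the threshold (adjusted p = 0.0444, 1.09-fold, peak at 14.9 h ± 1.1). Its 3 probe sets peaked at 15.1, 14.7 and 14.9 h, 1 of them was called alone (adjusted p = 0.0428, against 0.0832 and 0.0778), and processed copies of this gene in the genome can share its signal. Just outside the threshold was Slc25a45, whose substrate is not assigned here (adjusted p = 0.0633, 1.2-fold, peak at 16.9 h). The phosphate carrier Slc25a3 (1.04-fold) and Slc25a4, the ADP/ATP exchanger of muscle and heart (1.11-fold), were not called. Of the 8, Slc25a3, Slc25a5, Slc25a23 and Slc25a25 are in the brighter class (34.1% of genes called), and the rest are outside it (10.8%).

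The Slc25a5 call was lost without CT00 replicates 1 or 3 (adjusted p = 0.0578 and 0.0701), CT03 replicate 3 (0.072), CT06 replicate 2 (0.0757), CT09 replicate 1 (0.0517), CT12 replicates 1, 2 or 3 (0.0641, 0.0556 and 0.082), CT15 replicates 2 or 3 (0.115 and 0.103), CT18 replicates 2 or 3 (0.069 and 0.0505) or CT21 replicates 1 or 2 (0.0542 and 0.0546). Whole times that ended it were CT00, CT03, CT06, CT12, CT15, CT18 and CT21 (0.0868, 0.0859, 0.0738, 0.151, 0.271, 0.0857 and 0.0599). It was lost too without the 4 farthest arrays (0.0699) and with the median of its probe sets (0.0502). Slc25a45 was called without CT06 replicates 2 or 3 (0.0383 and 0.0447), CT12 replicates 1 or 3 (0.036 and 0.0475), CT15 replicate 1 (0.011), or the whole of CT06 (0.0339) or CT12 (0.0304). In contrast, 9 carriers (Slc25a10, Slc25a13, Slc25a22, Slc25a32, Slc25a39, Slc25a44, Slc25a46, Slc25a47 and Slc25a51) were called in the 24 h fit under every alternative that gave them a value, a minimum fold aside.

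Slc25a25, an ATP-magnesium/phosphate carrier, had the largest fold of the uncalled members (1.29) but arrays that differed widely at single times, such as 0.50, -0.34 and 0.63 at CT12. Its 3 arrays of CT18 (-0.68, -0.57 and -0.39) were low together, and neither the 24 h fit (adjusted p = 0.527) nor the 8-time test (0.163) passed. Its relatives Slc25a23, Slc25a24 and Slc25a41 had folds of 1.06 or less. The carnitine and acylcarnitine carrier Slc25a20, which brings fatty acyl groups in for oxidation, was not called either (1.15-fold, adjusted p = 0.328). Among the uncoupling-protein-like Slc25a14, Slc25a27 and Slc25a30, limma called 0 of 3, and 0 had an unadjusted p under 0.05. All 3 are outside the brighter class, where 10.8% of genes were called. Over all 32 uncalled carriers the fold ran from 1.02 to 1.29.

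**Figure D3:**
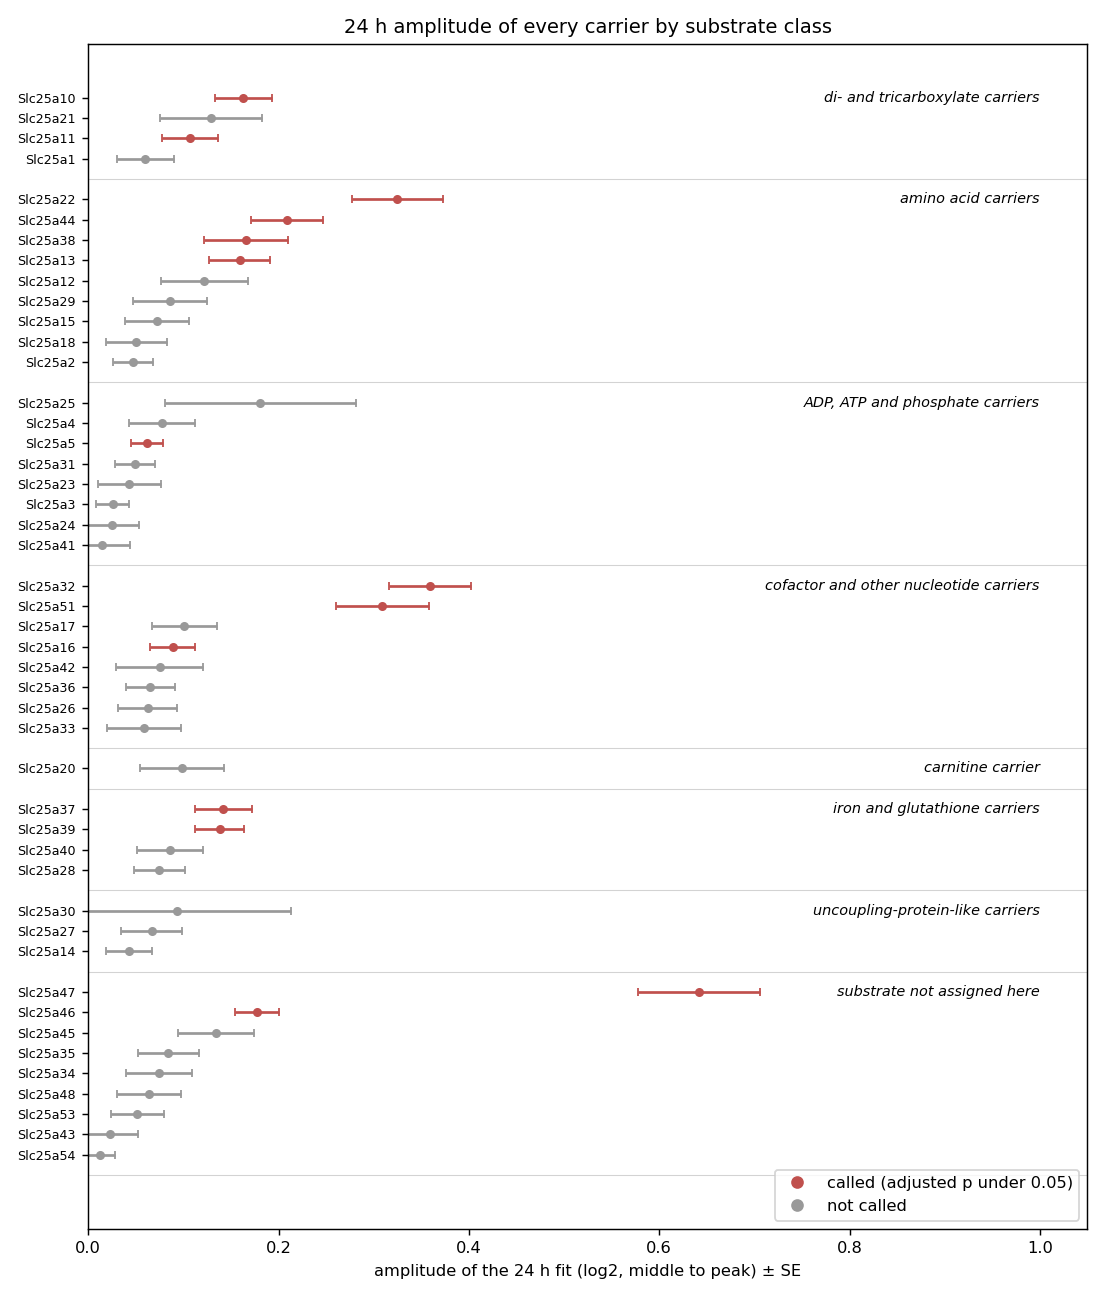
Amplitude of the 24 h fit (log2, middle to peak, bars are SE) of all 46 carriers by substrate class, called members in red and others in grey. Slc25a47 stands at 0.64, 3 further members lie at 0.31 to 0.36, and Slc25a25 and Slc25a30 have the widest errors.

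Contrasts between times 12 h apart set single times of the same arrays against each other. At CT12 against CT00, 3 carriers were higher (1.79% of genes) and 0 lower by limma (1.67% of genes; 0 carriers lower at an unadjusted p under 0.05). Slc25a32 averaged 0.66 ± 0.10 at CT12 and -0.05 ± 0.09 at CT00 (SD, n = 3), a difference of 0.71 ± 0.08 (SE, adjusted p = 6.12e-06). Slc25a47 differed by 0.99 ± 0.19 (adjusted p = 0.00294) and Slc25a51 by 0.63 ± 0.14 (adjusted p = 0.00993). The Slc25a51 call was lost without CT00 replicates 1 or 2 (0.0569 and 0.0526) or CT12 replicate 3 (0.0888), and without CT15 replicate 1 the contrast called 5 carriers.

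At CT15 against CT03, 4 carriers were higher (2.68% of genes) and 0 lower (1.8% of genes; 1 carrier lower at an unadjusted p under 0.05). Slc25a32 differed by 0.48 ± 0.08 (adjusted p = 0.000779), Slc25a51 by 0.57 ± 0.14, Slc25a37 by 0.33 ± 0.08 and Slc25a38 by 0.29 ± 0.08 (SE). Except for Slc25a32, these calls rested on single arrays. The contrast called 1 carrier without CT03 replicate 2, and 2 carriers without CT03 replicate 1 or CT15 replicate 3. Slc25a37 was lost without CT03 replicate 2 (adjusted p = 0.0846) or CT15 replicate 1 (0.0674). Slc25a51 was lost without CT03 replicates 1 or 2 (0.0612 and 0.0881) or CT15 replicates 1 or 3 (0.0786 and 0.07). Slc25a38 was lost without CT03 replicates 1 or 2 (0.111 and 0.157) or CT15 replicates 2 or 3 (0.12 and 0.153).

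At CT18 against CT06 the family went both ways, with 4 carriers lower (3.21% of genes) and 3 higher (1.43% of genes). Slc25a47 averaged -0.32 ± 0.20 at CT18 and 0.55 ± 0.17 at CT06 (SD, n = 3), a difference of -0.87 ± 0.19 (SE, adjusted p = 0.00918). Slc25a22 differed by -0.71 ± 0.13 (adjusted p = 0.00283) and Slc25a46 by -0.39 ± 0.06 (adjusted p = 0.000945). Slc25a44 was higher, at 0.36 ± 0.12 in CT18 livers and -0.21 ± 0.15 in CT06 livers (SD, n = 3), a difference of 0.58 ± 0.10 (SE, adjusted p = 0.00128). These 4 calls held without each array in turn.

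The other 3 calls at CT18 against CT06 were Slc25a10 (-0.30 ± 0.08), Slc25a38 (0.28 ± 0.08) and Slc25a39 (0.26 ± 0.07; SE), with adjusted p of 0.0363, 0.0397 and 0.0458. They changed with the arrays used, and the contrast called 4 carriers without CT18 replicate 2 or CT18 replicate 3. Slc25a10 was lost without CT06 replicates 2 or 3 (0.203 and 0.0875) or CT18 replicates 1, 2 or 3 (0.0576, 0.134 and 0.0758). Slc25a38 was lost without CT06 replicates 1 or 2 (0.136 and 0.139) or CT18 replicates 1, 2 or 3 (0.064, 0.143 and 0.0811). Slc25a39 was lost without CT06 replicates 1 or 3 (0.202 and 0.14) or CT18 replicates 2 or 3 (0.188 and 0.0993), and without 11 arrays of other times, with adjusted p from 0.0504 to 0.0574.

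At CT21 against CT09, 4 carriers were lower (2% of genes) and 0 higher by limma (1.56% of genes; 5 carriers higher at an unadjusted p under 0.05). Slc25a47 averaged -0.40 ± 0.22 at CT21 and 0.81 ± 0.18 at CT09 (SD, n = 3), a difference of -1.21 ± 0.19 (SE, adjusted p = 0.000495). Slc25a32 differed by -0.52 ± 0.08 (adjusted p = 0.000356), Slc25a22 by -0.60 ± 0.13 and Slc25a46 by -0.29 ± 0.06 (adjusted p = 0.0107 for both). Slc25a22 was lost without CT09 replicate 3 (0.0561) or the 4 farthest arrays (0.075), and Slc25a46 without CT09 replicate 1 (0.0655) or CT21 replicate 3 (0.0804). Highest and lowest times did not overlap in 34 of 46 carriers, but that held for 63.1% of genes when the times are picked by their means.

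Carriers paired as relatives within the family were compared by the per-array difference of their values. Not every pair is known to share a substrate, and those of Slc25a34 and Slc25a35 are not assigned here. Of 17 pairs, 4 had a 24 h wave in that difference by a permutation test of the time labels with 100000 resamples, with p adjusted over the 17 pairs. Slc25a18 and Slc25a22, both glutamate carriers, differed most: the difference, Slc25a18 minus Slc25a22, had an amplitude of 0.37 ± 0.05 (SE) and peaked at 20.2 h (adjusted p = 0.00017, from a raw p of 1e-05, the smallest that the resampling can give). At CT06 Slc25a18 averaged 0.00 ± 0.09 and Slc25a22 0.47 ± 0.32 (SD, n = 3). At CT18 they averaged 0.13 ± 0.08 and -0.23 ± 0.06.

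Slc25a1 minus Slc25a10, the citrate and the dicarboxylate carrier, had an amplitude of 0.17 ± 0.03 with a peak at 22.2 h (adjusted p = 0.00068). The glutathione pair Slc25a39 minus Slc25a40 had 0.19 ± 0.05 with a peak at 18.3 h (adjusted p = 0.00871). Slc25a34 minus Slc25a35 had 0.16 ± 0.04 with a peak at 6.99 h (adjusted p = 0.00871), although neither carrier was called alone (adjusted p = 0.381 and 0.21), and this call was lost without the 4 farthest arrays (0.0883). Slc25a34 averaged 0.12 ± 0.11 at CT06 and -0.09 ± 0.09 at CT15, whereas Slc25a35 averaged -0.09 ± 0.18 and 0.08 ± 0.08 (SD, n = 3). Slc25a18 and Slc25a40 are outside the brighter class, whereas their called partners Slc25a22 and Slc25a39 are in it. Slc25a34 and Slc25a35 are both outside it, and Slc25a1 and Slc25a10 both in it. The part of brightness in these differences was not tested.

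**Figure D4:**
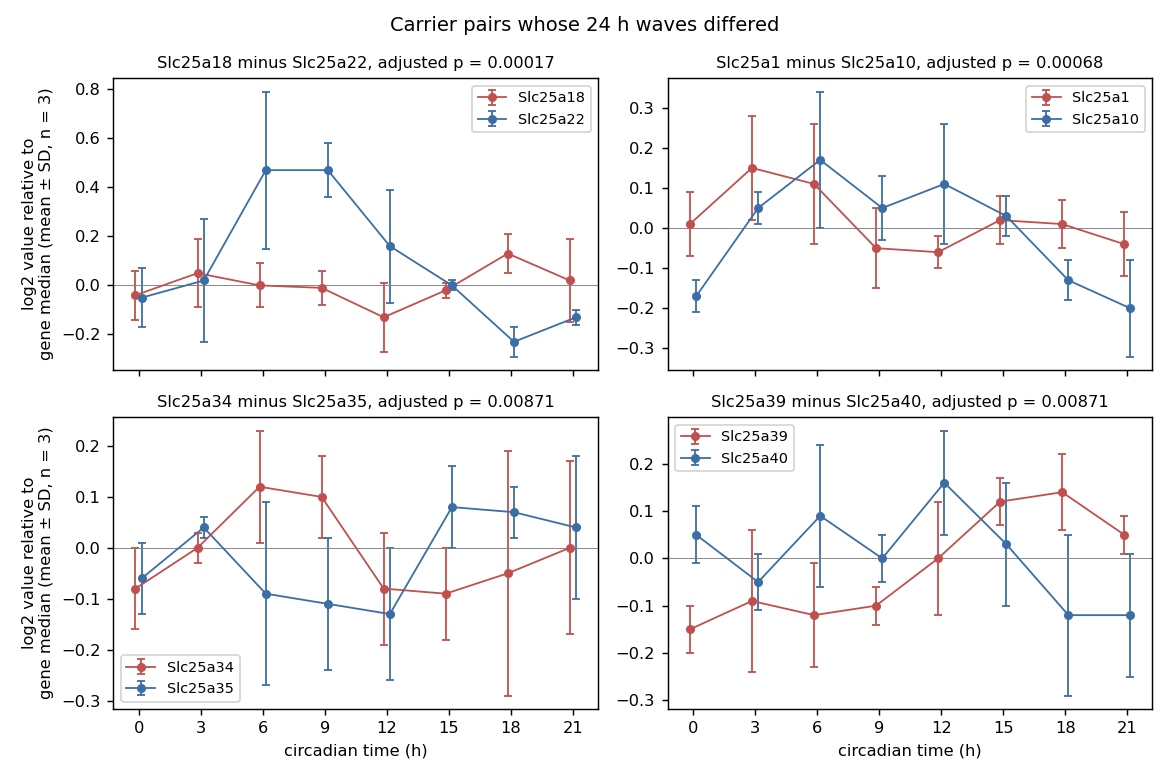
Means ± SD (n = 3 arrays per time) of the log2 value relative to the gene median, against circadian time in hours, for the 4 pairs whose difference had a 24 h wave, each gene relative to its own median, so that the lines give no order of levels. Slc25a18 stays within 0.01 of its median at CT06 and CT09, where Slc25a22 has its highest means (0.47 at both), and at CT12 Slc25a18 averages -0.13 and Slc25a22 0.16.

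For the remaining 13 pairs the wave of the difference did not pass. Slc25a12 minus Slc25a13, the aspartate-glutamate carriers, had an amplitude of 0.05 ± 0.03 (SE, adjusted p = 0.456), so a difference between them was not shown, although Slc25a13 was called and Slc25a12 was not. The same holds for the mitoferrins, Slc25a28 minus Slc25a37 (0.08 ± 0.05, adjusted p = 0.422), and for Slc25a4 minus Slc25a5 (0.09 ± 0.04, adjusted p = 0.156). The pyrimidine nucleotide carriers Slc25a33 minus Slc25a36 had the smallest amplitude, 0.01 ± 0.05 (adjusted p = 0.988). Slc25a10 minus Slc25a11 had 0.10 ± 0.03 (adjusted p = 0.0684) and passed without CT00 replicate 1 (0.0414), CT03 replicate 2 (0.0287), CT06 replicate 1 (0.0445), or CT12 replicates 1 or 3 (0.0333 and 0.0263).

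Genes that work beside the carriers are given from lists, with 13.8% of all genes called as the background, or 34.1% of genes in the brighter class. That class held 11 of the 11 citrate and malate-aspartate genes, 8 of the 8 urea cycle and ornithine genes, 8 of the 12 iron, heme and one-carbon genes and 4 of the 5 carnitine genes. For reference, the clock genes Per2 and Arntl peaked at 15.2 and 22.7 h. Of 4 family members with other symbols (Ucp1, Ucp3, Mtch1 and Mtch2) limma called 0, and 0 had an unadjusted p under 0.05. In the list of other inner membrane transport 4 of 10 were called, led by the calcium uniporter gene Mcu (1.61-fold, 2.13 h) and the sodium-calcium exchanger gene Slc8b1 (1.80-fold, 6.37 h). Of 14 outer membrane channels and import components 4 were called, led by the small import chaperone genes Timm8a1 (1.37-fold, 14.1 h) and Timm9 (1.35-fold, 13.1 h).

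Enzyme partners were called as follows. The carnitine shuttle had 3 of 5, with Cpt1a, which makes acylcarnitine at the outer membrane, at 9.62 h (1.95-fold) and the peroxisomal Crot at 3.61 h (1.84-fold), beside the uncalled Slc25a20. Citrate export and the malate-aspartate shuttle had 4 of 11, with the citrate synthase gene Cs at 2.75 h (1.30-fold) and the citrate-cleaving Acly at 21.4 h (1.64-fold), beside the uncalled Slc25a1. The urea cycle and ornithine list had 5 of 8, with Asl at 16.8 h (1.56-fold) and the polyamine enzyme gene Odc1 at 18.2 h (1.81-fold). The iron, heme and one-carbon list had 5 of 12, with Alas1, which uses glycine to start heme synthesis, at 13.8 h (3.45-fold) and the glutathione synthetase gene Gss at 10.4 h (1.47-fold). Of 7 regulators of mitochondrial biogenesis 2 were called, Ppara at 9.86 h (1.71-fold) and Ppargc1b at 8.35 h (1.32-fold).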

How the data were processed

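Affymetrix Mouse Gene 1.0 ST arrays were hybridized with RNA of single livers, per the labels' protocols. The deposited values, treated as log2, were centred: all row medians over the 24 arrays were 0 within 5.0e-07. How the authors corrected background, summarized and normalized, and in which log base, is not given in the sources used here, so folds assume base 2. Depth does not apply, and the number of arrays limits the precision. Symbols came from the platform annotation: 21780 probe sets had 1 symbol, 1605 several and 5430 none listed. Probe sets were averaged per gene (3 carriers had several).

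The rounding steps of the values separate probe sets with values from 8 to 16 (the brighter class, 4007) from those with values from 4 to 8 (24787).

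Tests used limma 3.58.1 in R 4.3.3, fitted to all 19935 genes with eBayes moderation and Benjamini-Hochberg adjustment at 0.05: a 24 h cosine and sine, an added 12 h pair, equality of the 8 times, and 4 contrasts. Standard errors of peaks are from the delta method. Planned protein features were not computed, because no protein sequences were used here. The tests were run on simulated data first. Members and lists were chosen with earlier results of these data known. Per-array values are given for the 6 called members with the largest amplitudes, other genes only from the lists, the 2 smallest p of each.

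Same-numbered arrays were not taken as pairs, and the labels share only the number. Yet 45 of 84 same-numbered pairs of arrays had deviations from their group means that correlated above 0.1. What the number stands for was not tested, and fits with it as a block are given below.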

Additional observations from a re-analysis of the deposited data

How the results depend on the processing

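The count of carriers rhythmic in the 24 h fit (14) ran from 10 to 15 when each array was left out, and from 10 to 14 when each time was. It was 14 with quantile normalization, with array medians subtracted and with robust eBayes, 15 with array weights, 12 without moderation, 10 without the 4 farthest arrays (CT09 replicate 3, CT15 replicates 1 and 2, CT18 replicate 3) and 4 with a minimum of 1.5-fold. All 14 called carriers also had their highest group mean from CT06 to CT18. Counts over single arrays left out ran from 10 to 13 for the 8-time test, 1 to 2 for the 12 h component, 2 to 5 for CT12 minus CT00, 1 to 5 for CT15 minus CT03, 4 to 7 for CT18 minus CT06, 3 to 5 for CT21 minus CT09, and 4 to 5 for the pairs.

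The 12 h component (2 carriers) was called in 1 carrier with quantile normalization, 1 without the 4 farthest arrays and 0 among brighter probe sets alone. CT12 minus CT00 (3) called 6 carriers with quantile normalization, 5 without the 4 farthest arrays, 7 with array weights and 5 among brighter probe sets. CT15 minus CT03 (4) called 1 without the 4 farthest arrays and 0 among brighter probe sets. All 4 carriers of that contrast, and both with a 12 h component, are outside the brighter class. Brighter probe sets alone left them out, so the loss of these calls there was fixed in advance. At CT12 minus CT00 the same holds for Slc25a32 and Slc25a51. CT18 minus CT06 (7) called 4 without the 4 farthest arrays and 4 without moderation. Leaving out the 4 farthest arrays leaves fewer arrays, and brighter probe sets alone are fewer genes. The cause of the changed counts was not tested for any alternative. Counts over all genes under these alternatives are not given here, so the changes are not shown to be particular to the carriers.

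With the replicate number as a block, the 24 h fit called 14 carriers, CT12 minus CT00 6, and the 8-time test 15, against 11 without it. Slc25a5 was then not called (adjusted p = 0.0527), and Slc25a45 (0.0292) and the pair Slc25a10 minus Slc25a11 (0.04995) were. The labels share only the number: the mean correlation of deviations was 0.0937 for equal and -0.0465 for different numbers, and 15 of 24 arrays correlated best with their own number.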

Other observations

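Slc25a30, an uncoupling-protein-like carrier, had the widest spread between arrays of 1 time. Its arrays gave -1.19, 0.40 and -0.27 at CT15, 0.63, -0.51 and 0.41 at CT21, and 0.66, 0.31 and -0.30 at CT12, against 0.07 or less either side of 0 at CT00. Its SD over the 3 arrays of a time ran from 0.05 at CT00 to 0.80 at CT15, and its 24 h amplitude of 0.09 ± 0.12 (SE) was smaller than its error (adjusted p = 0.916).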
